A study of Homo sapiens with 9 samples.

Results

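The genes described here encode transforming growth factor beta (TGF-beta) ligands, the proteins that hold them latent, their receptors, and intracellular parts of the pathway. The set was given as 10 symbols: TGFB1 and TGFB2 (ligands), LTBP1, LTBP2 and LTBP3 (latent TGF-beta binding proteins), TGFBR1 and TGFBR2 (receptors), SMAD3 and SMAD7 (signal transducers) and TGFBI (a matrix protein named for its induction by TGF-beta). Members were the probe sets annotated to exactly 1 of these genes. All 10 genes were matched, through 25 of the 54613 probe sets that are not controls, and 22 of the 25 had a mean signal above the level used as a filter (a log2 value of 6.05). Each gene was represented by its brightest probe set, and so represented the 10 genes were all among the 12616 tested of the 19775 genes with a probe set of their own.

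RNA from A549, a human lung adenocarcinoma cell line grown in DMEM with serum and given no treatment, was hybridized to 9 Affymetrix arrays. The arrays form 3 groups of 3: si-Med23 cells with an RNA interference oligo against MED23 (oligos A, B and C), si-Elk1 cells with an oligo against ELK1 (oligos A, B and C), and si-Ctrl cells with a control oligo (replicates 1, 2 and 3). MED23 is a subunit of Mediator, a complex that carries signals from transcription factors to the polymerase. ELK1 belongs to the ETS family of transcription factors and can recruit Mediator through MED23. Replicates of a knockdown are different oligos in what the labels call different cell lines, while the labels do not state separate cultures for si-Ctrl, so its spread may be technical.

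TGF-beta ligands are secreted in a latent complex, in which the ligand's own propeptide is held by a latent TGF-beta binding protein that anchors it in the matrix. Once freed, the ligand binds the type II receptor TGFBR2, which phosphorylates the type I receptor TGFBR1. TGFBR1 then phosphorylates SMAD2 and SMAD3, which enter the nucleus with SMAD4, and SMAD7 feeds back on the receptor. In lung epithelial cells, A549 included, added TGF-beta is known to induce matrix genes and epithelial-mesenchymal transition.

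The promoter windows of TGFB1, TGFB2 and TGFBR2 are shown because both ligand genes and TGFBR2 differed between si-Med23 and si-Ctrl cells, as given below, and because their letters differ. Each window is a RefSeq sequence of build GRCh38.p14 that runs from 250 bases before to 50 bases after an annotated start, written on the gene's own strand. TGFB1 is at chr19:41353873-41354172 on the minus strand, TGFB2 at chr1:218345086-218345385 on the plus strand, and the second of the TGFBR2 windows at chr3:30606351-30606650 on the plus strand. Capitals mark GC boxes (GGGCGG, or CCGCCC on the other strand), TATA boxes (TATAAA) and AP-1 motifs (TGAGTCA).
TGFB1: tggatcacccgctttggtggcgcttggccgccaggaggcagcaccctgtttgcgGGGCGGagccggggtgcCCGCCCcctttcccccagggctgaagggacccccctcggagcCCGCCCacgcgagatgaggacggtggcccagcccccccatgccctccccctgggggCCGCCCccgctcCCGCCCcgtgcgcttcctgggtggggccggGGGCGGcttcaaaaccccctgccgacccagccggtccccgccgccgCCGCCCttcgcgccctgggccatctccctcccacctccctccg
TGFB2: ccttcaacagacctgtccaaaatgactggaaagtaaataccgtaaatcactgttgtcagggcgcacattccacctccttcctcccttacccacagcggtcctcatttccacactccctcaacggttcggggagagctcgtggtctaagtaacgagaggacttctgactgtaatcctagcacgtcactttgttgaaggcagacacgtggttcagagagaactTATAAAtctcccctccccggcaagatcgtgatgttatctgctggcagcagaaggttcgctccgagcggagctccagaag
TGFBR2: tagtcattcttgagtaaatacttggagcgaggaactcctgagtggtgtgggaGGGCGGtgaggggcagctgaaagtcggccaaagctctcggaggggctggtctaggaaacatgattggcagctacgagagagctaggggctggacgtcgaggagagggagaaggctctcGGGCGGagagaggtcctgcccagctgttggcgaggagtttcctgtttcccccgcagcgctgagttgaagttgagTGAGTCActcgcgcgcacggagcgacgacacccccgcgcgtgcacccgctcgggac
The TGFB1 window held 7 GC boxes and had 77.3% G and C. The TGFB2 window held no GC box, had 51.7% G and C, and held a TATA box that began 29 bases before the start. The TGFBR2 window held 2 GC boxes and an AP-1 motif that began 6 bases before the start. The first TGFBR2 window, not shown, had 42.3% G and C and held no GC box, TATA box or AP-1 motif.

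Across the 27 windows of the 10 genes, 6 motifs were searched on both strands. GC boxes occurred in 11 of the 27 and in 45.0% of all 35116 windows in the table. TATA boxes occurred in 2 of the 27 (TGFB2 and SMAD7) and in 11.5% of all, and AP-1 motifs in 2 of the 27 (TGFBR2 and SMAD3) and in 4.95% of all. The ETS motif CCGGAAGT, of the family ELK1 belongs to, occurred in 4.14% of all windows and in none of the 27. The SMAD palindrome GTCTAGAC occurred in 0.202% of all windows and also in none of the 27, and the cAMP response element TGACGTCA occurred in 1.85% and in an LTBP1 window. No match of a motif overlapped a match of another in the 27 windows. A match describes letters in the window and is not a binding site, and the lack of one says only that these letters are not there.

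The targeted transcripts were lower in their own groups. MED23 had log2 signals of 6.79, 6.19 and 7.06 in si-Med23 cells, against 9.27, 9.05 and 9.08 in si-Ctrl cells, which is 18.2% of the control signal (limma adjusted p = 0.00184). ELK1 had 7.07, 7.15 and 7.83 in si-Elk1 cells, against 9.36, 9.61 and 9.29 in si-Ctrl cells, or 23.8% (adjusted p = 0.00684). The si-Elk1 oligo C array stood apart from oligos A and B in several members, and MED23 read 8.18 on it, against 8.87 and 9.02 with oligos A and B. For comparisons with si-Elk1, values without it are given for members it moved. By their mean over the 9 arrays, epithelial markers were above the filter level in 6 of 6 genes and the fibroblast markers DCN, LUM, COL1A2, COL3A1, PDGFRA and PDGFRB in 0 of 6. PECAM1 was the 1 of 5 endothelial markers above it, and CD3E and HBB were the 2 of 4 blood markers. None of these markers was at 0.

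On the deposited scale each array has about the same trimmed mean, and control probe sets differed between the groups. The poly-A spikes, added to the RNA before labelling in the usual protocol, averaged 9.22 ± 0.12 in si-Med23, 8.25 ± 0.29 in si-Elk1 and 7.61 ± 0.20 in si-Ctrl arrays (log2, SD, n = 3 each). Scaling on them moved every si-Med23 log2 fold change against si-Ctrl by -1.61, scaling on the hybridization controls by -0.50, and centring on the array median by 0.23. The directions below hold on the deposited scale. Differences between members on the same array, given last, do not depend on it.

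Of the 10 members, 6 differed between si-Med23 and si-Ctrl cells in the limma test (adjusted p under 0.05), 4 higher and 2 lower. TGFB1, LTBP2, TGFBR2 and TGFBI rose, and TGFB2 and TGFBR1 fell. Of all genes tested, 39.8% passed in this comparison, 20.3% higher and 19.5% lower, so many other transcripts differed too. The members' median log2 fold change was 0.43, against 0.09 over all genes tested. Median centring gave 6 higher and 0 lower in place of 4 and 2, hybridization controls as the scale gave 2 higher and 3 lower, and poly-A spikes gave 0 higher and 9 lower. The shares of all genes that passed were 51.0% with median centring, 44.5% with hybridization controls and 94.3% with poly-A spikes. Median centring gave 4764 of the 12616 genes higher and 1676 lower. Those counts were 409 and 5205 with hybridization controls, and 18 and 11880 with poly-A spikes. The groups did not overlap for 7 of the 10 members, against 57.3% of all genes. In RNA of a whole culture, fewer cells of a kind and less RNA per cell cannot be told apart.

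**Figure D1:**
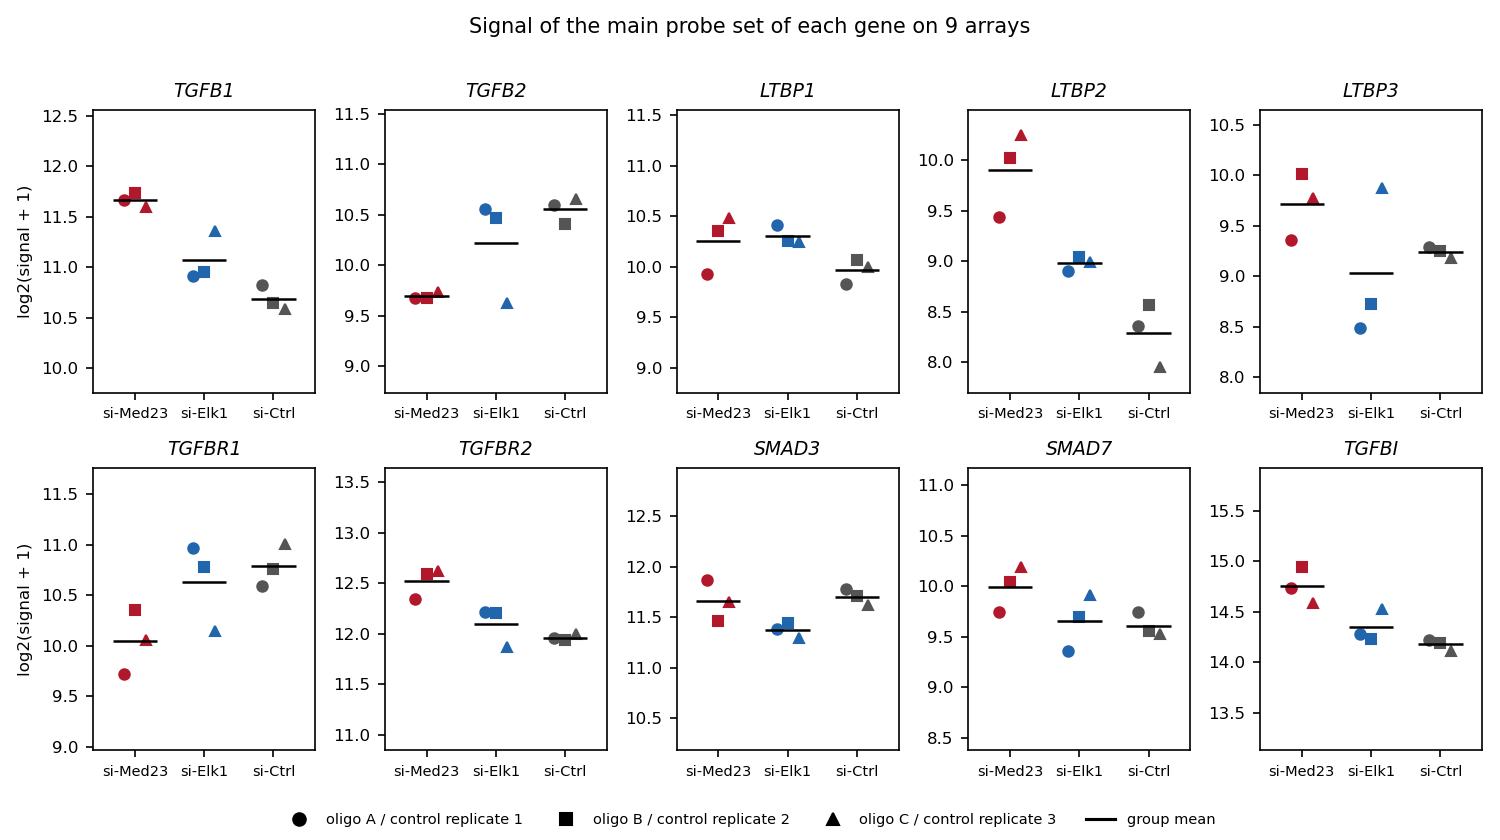
Log2(signal + 1) of the main probe set of each of the 10 genes on the 9 arrays, with si-Med23, si-Elk1 and si-Ctrl from left to right; circles, squares and triangles are oligos A, B and C (control replicates 1, 2 and 3), lines are group means, and every panel spans the same height. TGFB1 and LTBP2 lie highest in si-Med23, and the triangle of si-Elk1 lies away from its group in TGFB2, LTBP3 and TGFBR1.

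TGFB1 is the founding ligand of the family. Its main probe set read 11.66, 11.73 and 11.60 with si-Med23 oligos A, B and C, 10.91, 10.96 and 11.36 with si-Elk1 oligos A, B and C, and 10.82, 10.65 and 10.59 in the si-Ctrl arrays (log2). The 3 groups did not overlap, with si-Med23 on top and si-Ctrl at the bottom. TGFB1 was 1.97-fold higher in si-Med23 than in si-Ctrl cells (log2 fold change 0.98 ± 0.15, SE, n = 3 arrays per group; limma adjusted p = 0.00270) and 1.51-fold higher than in si-Elk1 cells (0.59 ± 0.15; adjusted p = 0.0266, and 0.73 with adjusted p = 0.00386 without si-Elk1 oligo C). The si-Elk1 difference from si-Ctrl was 0.39 with a 95% interval of 0.06 to 0.72 and did not pass (adjusted p = 0.147), and it was 0.25 (adjusted p = 0.265) without si-Elk1 oligo C. The other TGFB1 probe set was under the filter level, at 6.34, 6.40 and 6.75 in si-Med23, 3.66, 6.41 and 4.60 in si-Elk1 and 6.39, 6.14 and 5.80 in si-Ctrl arrays. Averaged over both probe sets, TGFB1 was 0.68 higher in si-Med23 than si-Ctrl cells and no longer passed (adjusted p = 0.113), and with poly-A scaling the sign was turned (-0.63).

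TGFB2, the other ligand, fell in si-Med23 cells. Its main probe set read 9.67, 9.67 and 9.73 with si-Med23 oligos A, B and C, 10.55, 10.47 and 9.62 with si-Elk1 oligos A, B and C, and 10.60, 10.40 and 10.65 in si-Ctrl arrays. Oligo C of si-Elk1 lay just below the si-Med23 values, and oligos A and B lay among the controls. The si-Med23 signal was 55.1% of that in si-Ctrl cells (log2 fold change -0.86 ± 0.23; limma adjusted p = 0.0185). The other 4 TGFB2 probe sets differed by -0.22, -0.42, -0.63 and -0.49 in the same comparison and none of them passed, so the size depends on the probe set. The first of the 4 read 9.69, 9.86 and 9.67 in si-Med23, 9.72, 9.55 and 9.34 in si-Elk1 and 9.79, 10.06 and 10.02 in si-Ctrl arrays. The second read 8.61, 8.40 and 8.53 in si-Med23, 8.49, 8.69 and 7.89 in si-Elk1 and 8.97, 8.84 and 8.99 in si-Ctrl arrays, with every control above every other array. The third read 6.70, 7.58 and 7.31 in si-Med23, 7.71, 8.14 and 7.58 in si-Elk1 and 7.74, 8.01 and 7.75 in si-Ctrl arrays, so si-Med23 lay below the controls. The fourth was close to the filter level, with 6.03, 4.99 and 6.63 in si-Med23, 6.77, 6.29 and 6.71 in si-Elk1 and 6.31, 6.07 and 6.72 in si-Ctrl arrays. The call for TGFB2 was lost with si-Ctrl replicate 1 left out (adjusted p = 0.0530), si-Ctrl replicate 3 (0.0620) or si-Med23 oligo B (0.0506), and also with median centring (0.0525) or no filter (0.0501). Against si-Elk1 cells the TGFB2 difference was -0.52 (adjusted p = 0.126), and -0.82 (adjusted p = 0.00293) without si-Elk1 oligo C.

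Latent TGF-beta binding proteins tether the latent ligand to fibrillin-rich matrix, but LTBP2, which binds fibrillin too, is known not to bind latent TGF-beta. LTBP2 showed the largest log2 fold change of the 10 members between si-Med23 and si-Ctrl cells. Its main probe set read 9.44, 10.02 and 10.24 with si-Med23 oligos A, B and C, 8.90, 9.04 and 8.99 in si-Elk1 and 8.35, 8.56 and 7.95 in si-Ctrl arrays. The 3 groups did not overlap. LTBP2 was 3.05-fold higher in si-Med23 than si-Ctrl cells (log2 fold change 1.61 ± 0.23; limma adjusted p = 0.00244) and 1.90-fold higher than in si-Elk1 cells (0.93 ± 0.23; adjusted p = 0.0256). Its si-Elk1 difference from si-Ctrl was 0.69 and did not pass (adjusted p = 0.111). A second LTBP2 probe set gave a log2 fold change of 0.21 in si-Med23 against si-Ctrl cells and did not pass, with 8.32, 9.08 and 8.63 in si-Med23, 8.12, 8.57 and 8.70 in si-Elk1 and 8.58, 8.17 and 8.63 in si-Ctrl arrays. These probe sets of LTBP2 disagree on the size, and with poly-A scaling the main one showed a difference of 0.00058 (adjusted p = 0.999).

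LTBP3 had a main probe set with si-Med23 values of 9.36, 10.01 and 9.78, si-Elk1 values of 8.49, 8.73 and 9.87 and si-Ctrl values of 9.29, 9.25 and 9.18. It was above every control in si-Med23 cells but did not pass (log2 fold change 0.47; limma adjusted p = 0.279, and 0.0554 without si-Elk1 oligo C). Oligo C lay far above oligos A and B in si-Elk1 cells. Its other probe set above the filter read 9.45, 9.69 and 9.27 in si-Med23, 9.01, 8.90 and 8.92 in si-Elk1 and 8.64, 8.71 and 8.61 in si-Ctrl arrays. That probe set rose by 0.81 in si-Med23 against si-Ctrl cells (adjusted p = 0.00496, over all probe sets). Its name ends in _x_at, which marks probes that may also bind other transcripts. The remaining LTBP3 probe set was under the filter level, with 5.15, 7.26 and 6.43 in si-Med23, 6.85, 6.27 and 6.26 in si-Elk1 and 2.72, 5.74 and 6.54 in si-Ctrl arrays. Without si-Elk1 oligo C the main LTBP3 probe set was 1.11 higher in si-Med23 than si-Elk1 cells (adjusted p = 0.00587), against 0.69 with it (adjusted p = 0.158).

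LTBP1 was called in none of the 3 comparisons. Its main probe set read 9.93, 10.35 and 10.48 in si-Med23, 10.41, 10.25 and 10.24 in si-Elk1 and 9.83, 10.07 and 10.00 in si-Ctrl arrays. The log2 fold change was 0.29 in si-Med23 (95% interval -0.08 to 0.65; limma adjusted p = 0.177) and 0.34 in si-Elk1 cells (adjusted p = 0.227), each against si-Ctrl. The second LTBP1 probe set read 7.69, 8.21 and 8.20 in si-Med23, 8.04, 7.08 and 8.49 in si-Elk1 and 7.04, 7.11 and 7.62 in si-Ctrl arrays. Its si-Med23 values lay above the controls without passing (0.77; adjusted p = 0.116, over all probe sets). With median centring the main LTBP1 probe set passed in si-Med23 cells (0.52; adjusted p = 0.0186). It also passed with si-Med23 oligo A left out (adjusted p = 0.0391).

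On the deposited scale TGFBR2 was higher and TGFBR1 lower in si-Med23 than in si-Ctrl cells, while with poly-A scaling both were lower. TGFBR2, the type II receptor that binds ligand, read 12.34, 12.59 and 12.62 in si-Med23, 12.21, 12.21 and 11.87 in si-Elk1 and 11.96, 11.94 and 11.99 in si-Ctrl arrays. Every si-Med23 value lay above every other. TGFBR2 was 1.47-fold higher in si-Med23 than si-Ctrl cells (log2 fold change 0.56 ± 0.14; limma adjusted p = 0.0136), and its second probe set gave 0.86 (adjusted p = 0.0509, over all probe sets). That probe set read 7.71, 8.62 and 8.79 in si-Med23, 8.12, 8.07 and 7.76 in si-Elk1 and 7.20, 7.86 and 7.48 in si-Ctrl arrays, where si-Med23 oligo A lay among the controls. With hybridization control scaling the TGFBR2 difference was 0.06 (adjusted p = 0.775), and with poly-A scaling it was -1.05. Against si-Elk1 cells the difference was 0.42 and did not pass (adjusted p = 0.0566). Without si-Elk1 oligo C it was smaller, at 0.31, and it passed in none of the 9 fits that left out an array.

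TGFBR1, the type I receptor that phosphorylates SMAD2 and SMAD3, read 9.71, 10.35 and 10.06 in si-Med23, 10.96, 10.77 and 10.14 in si-Elk1 and 10.59, 10.75 and 11.01 in si-Ctrl arrays. The si-Med23 values lay below the controls, and si-Elk1 oligo C lay among the si-Med23 values. TGFBR1 in si-Med23 cells was at 59.7% of its si-Ctrl signal (log2 fold change -0.74 ± 0.24; limma adjusted p = 0.0399). The call was lost in 6 of the 9 fits that left out an array, with adjusted p between 0.0522 and 0.126 in those 6, and with median centring (-0.51; adjusted p = 0.111). Against si-Elk1 cells it was -0.59 (adjusted p = 0.111), and -0.83 (adjusted p = 0.0212) without si-Elk1 oligo C. A second TGFBR1 probe set read 6.84, 7.34 and 7.37 in si-Med23, 7.58, 7.38 and 7.66 in si-Elk1 and 7.74, 7.43 and 7.71 in si-Ctrl arrays, and did not pass (-0.45; adjusted p = 0.0869, over all probe sets). The remaining one was under the filter level, with 4.79, 1.93 and 5.50 in si-Med23, 6.28, 4.88 and 3.98 in si-Elk1 and 5.76, 5.43 and 6.11 in si-Ctrl arrays.

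SMAD3 and SMAD7 did not pass in any of the 3 comparisons at the gene level. SMAD3, which carries the receptor signal to DNA, read 11.87, 11.46 and 11.65 in si-Med23, 11.39, 11.44 and 11.29 in si-Elk1 and 11.77, 11.71 and 11.62 in si-Ctrl arrays. The si-Elk1 values lay below all others, with a log2 fold change against si-Ctrl of -0.32 (95% interval -0.62 to -0.03; limma adjusted p = 0.169). The 4 SMAD3 probe sets had si-Elk1 differences of -0.32, -0.25, -0.53 and -0.12 from si-Ctrl, and 1 of them, ending in _x_at, was 0.75 higher in si-Med23 than si-Elk1 cells (adjusted p = 0.0181, over all probe sets). That probe set read 10.14, 10.02 and 10.24 in si-Med23, 9.15, 9.49 and 9.52 in si-Elk1 and 9.92, 9.77 and 10.08 in si-Ctrl arrays, with every si-Elk1 array lowest. The other 2 overlapped between si-Elk1 and si-Ctrl cells. They read 12.02, 11.54 and 11.89, and 9.47, 8.62 and 8.90, in si-Med23 arrays, 11.12, 11.16 and 11.54, and 8.42, 8.64 and 9.13, in si-Elk1 arrays, and 11.64, 11.35 and 11.57, and 9.01, 8.51 and 9.05, in si-Ctrl arrays. SMAD7, the inhibitory SMAD that TGF-beta itself induces, read 9.74, 10.04 and 10.19 in si-Med23, 9.36, 9.70 and 9.91 in si-Elk1 and 9.75, 9.55 and 9.53 in si-Ctrl arrays. Its groups overlapped in each comparison, and the log2 fold change of 0.38 in si-Med23 against si-Ctrl cells had an interval of -0.02 to 0.78 (adjusted p = 0.114).

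TGFBI, a secreted matrix protein that binds integrins and collagens, read 14.73, 14.95 and 14.59 in si-Med23, 14.28, 14.24 and 14.53 in si-Elk1 and 14.23, 14.20 and 14.11 in si-Ctrl arrays. The si-Med23 values lay above all others. TGFBI was 1.49-fold higher in si-Med23 than si-Ctrl cells (log2 fold change 0.58 ± 0.13; limma adjusted p = 0.0113). With hybridization control scaling its difference was 0.08 (adjusted p = 0.657), and with poly-A scaling -1.03. Against si-Elk1 cells it was 0.41 (adjusted p = 0.0599), and 0.50 (adjusted p = 0.0217) without si-Elk1 oligo C.

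Between si-Elk1 and si-Ctrl cells, 0 of the 10 members passed in the limma test, against 4.26% of all genes (3.07% higher and 1.19% lower). Without adjustment, TGFB1, LTBP2 and SMAD3 had a p under 0.05, as did 3162 of the 12616 genes. The groups did not overlap for 5 members, against 36.3% of all genes: TGFB1, LTBP1, LTBP2 and TGFBI lay above the controls and SMAD3 below. The median log2 fold change of the members was 0.09, against 0.05 over all genes. A missed threshold does not show that the groups were alike: the LTBP2 interval, for one, reached 1.201. Without si-Elk1 oligo C the difference was -0.04 for TGFB2, -0.64 for LTBP3, 0.08 for TGFBR1, 0.25 for TGFBR2, -0.08 for SMAD7 and 0.08 for TGFBI, and again no member passed. The si-Med23 and si-Elk1 comparisons share the si-Ctrl arrays.

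Set against si-Elk1 directly, si-Med23 cells had 2 of the 10 members higher, TGFB1 and LTBP2, and 0 lower. Of all genes, 21.7% passed in this comparison, 9.54% higher and 12.2% lower. The groups did not overlap for 5 members, against 38.0% of all genes. Without adjustment TGFBR2 and TGFBI, both higher, and TGFB2 and TGFBR1, both lower, also had a p under 0.05, as did 5009 of the 12616 genes in all, but they did not pass. The call for TGFB1 was lost in 4 of the 9 fits that left out an array (adjusted p up to 0.0949), as was that for LTBP2 (up to 0.0835). Without si-Elk1 oligo C, 6 members passed: TGFB1, LTBP2, LTBP3 and TGFBI higher, TGFB2 and TGFBR1 lower. The share of all genes that passed also grew in that fit, to 35.6%, with 2045 higher and 2451 lower. With poly-A scaling the signs of TGFB1 (-0.38) and LTBP2 (-0.046) were turned.

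At the level of single probe sets, 7 of the 22 above the filter passed between si-Med23 and si-Ctrl cells, against 34.5% of all probe sets. None of the 22 passed between si-Elk1 and si-Ctrl cells (1.79% of all; 5762 of the 27307 had an unadjusted p under 0.05), and 4 passed between si-Med23 and si-Elk1 cells (17.4% of all). The 4 were those of TGFB1 and LTBP2 named above, the LTBP3 probe set ending in _x_at and the SMAD3 probe set ending in _x_at.

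**Figure D2:**
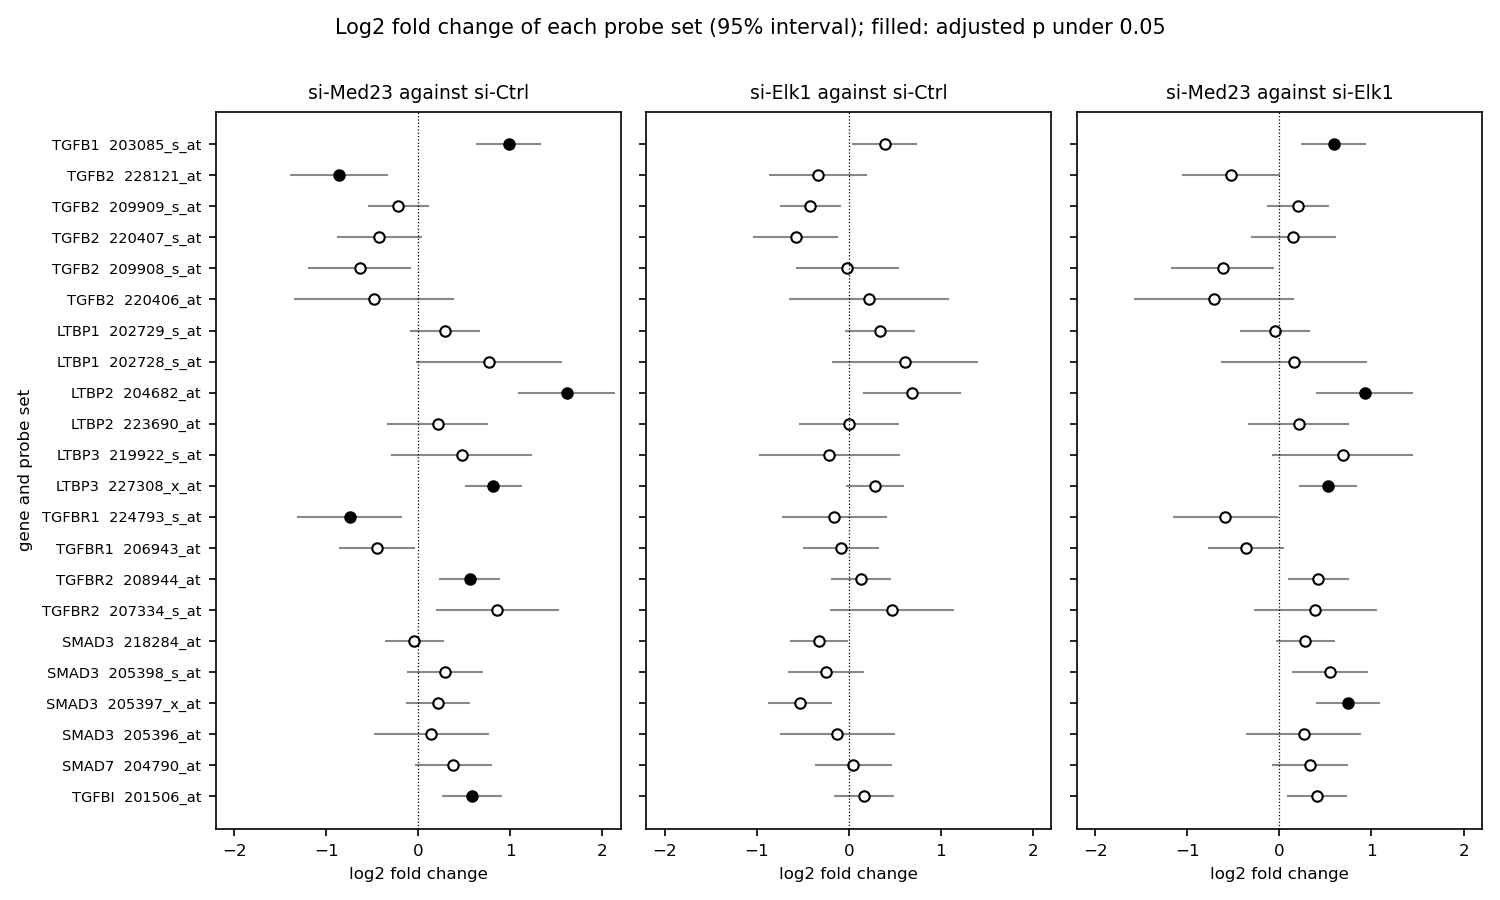
Log2 fold change of the 22 probe sets above the filter in the 3 comparisons, each with its 95% interval; filled points have an adjusted p under 0.05. The filled points number 7 for si-Med23 against si-Ctrl, 0 for si-Elk1 against si-Ctrl and 4 for si-Med23 against si-Elk1.

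The contrast between members was examined within each array, where a scaling factor common to the array drops out. The 5 pairs were chosen after their values were seen, and each gene was read by its main probe set only. TGFB1 stood 1.99, 2.06 and 1.87 above TGFB2 in si-Med23, 0.36, 0.49 and 1.74 in si-Elk1 and 0.22, 0.24 and -0.06 in si-Ctrl arrays, in log2 differences of probe set signals whose zero has no meaning across genes. The si-Med23 arrays exceeded all controls, and si-Elk1 oligo C lay near the si-Med23 values. TGFBR2 stood 2.63, 2.24 and 2.56 above TGFBR1 in si-Med23, 1.25, 1.43 and 1.72 in si-Elk1 and 1.37, 1.18 and 0.98 in si-Ctrl arrays. The si-Med23 values again lay above all others. LTBP2 relative to LTBP1 was -0.49, -0.33 and -0.24 in si-Med23, -1.51, -1.21 and -1.25 in si-Elk1 and -1.47, -1.50 and -2.04 in si-Ctrl arrays. From si-Ctrl, si-Med23 cells differed by 1.84 for TGFB1 minus TGFB2, by 1.30 for TGFBR2 minus TGFBR1 and by 1.32 for LTBP2 minus LTBP1. Each of these 3 had an exact two-sided permutation p of 0.1, the smallest that 3 against 3 arrays allow, and 0.1875 when adjusted over the 15 comparisons, so a threshold of 0.05 could not be reached. The sizes depend on the probe sets. The second LTBP2 probe set rose by 0.21, and the LTBP1 probe sets by 0.29 and 0.77, so the LTBP2 contrast rests on its main probe set. The other TGFB2 probe sets fell by less than the main one (-0.22 to -0.63, against -0.86). Second probe sets gave 0.86 for TGFBR2 and -0.45 for TGFBR1, against 0.56 and -0.74. The groups overlapped for LTBP3 minus LTBP1 (difference 0.18, exact permutation p = 0.3) and for SMAD7 minus SMAD3 (0.42, exact permutation p = 0.3). The si-Elk1 arrays also lay above si-Ctrl for TGFB1 minus TGFB2 (0.73) and SMAD7 minus SMAD3 (0.37), each with an exact permutation p of 0.1. In the first of these pairs oligo C was far above oligos A and B. In the second, si-Elk1 arrays read -2.02, -1.74 and -1.38 and si-Ctrl arrays -2.03, -2.15 and -2.09. There oligo A barely cleared the controls and oligo C was again highest.

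**Figure D3:**
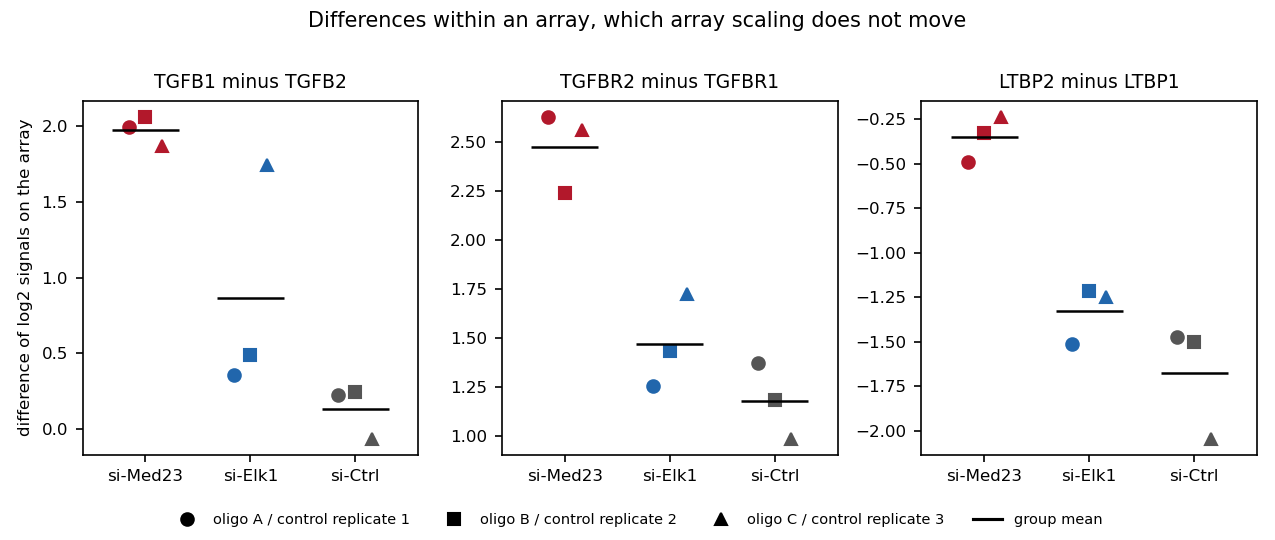
Log2 difference between the main probe sets of 2 genes on the same array, with si-Med23, si-Elk1 and si-Ctrl from left to right and lines at group means. In si-Med23 arrays TGFB1 minus TGFB2 lies between 1.87 and 2.06, and in si-Ctrl arrays between -0.06 and 0.24.

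Other genes of the pathway were described by role, from lists of 96 symbols of which 91 had a probe set of their own and 72 were tested. Between si-Med23 and si-Ctrl cells, 20 were higher, 12 were lower and 40 did not pass, with a median log2 fold change of 0.26 (0.09 over all genes). Over all genes, 20.3% were higher and 19.5% lower. Of the 4 other ligands none passed in limma, and 1 had an unadjusted p under 0.05, as did 6348 of the 12616 genes. In si-Elk1 against si-Ctrl cells the 72 held 7 higher and 1 lower, all among the TGF-beta targets, and between si-Med23 and si-Elk1 cells 10 were higher and 8 lower. The shares over all genes were 3.07% higher and 1.19% lower in si-Elk1 against si-Ctrl. Between si-Med23 and si-Elk1 they were 9.54% and 12.2%. Of 7 other receptors 1 was higher and 3 were lower in si-Med23 against si-Ctrl cells. ACVR1B, an activin type I receptor, rose by 0.71 (limma adjusted p = 0.00444), and the type II receptors BMPR2 (-1.60; adjusted p = 0.00867) and ACVR2A (-0.52; adjusted p = 0.0210) and the type I receptor BMPR1B (-1.13; adjusted p = 0.0159) fell. BMPR2 read 7.14, 7.63 and 8.16 in si-Med23, 9.06, 9.00 and 7.85 in si-Elk1 and 9.25, 9.24 and 9.23 in si-Ctrl arrays. Oligo C of si-Elk1 lay with the si-Med23 values here too.

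Among 7 other SMADs and partners, 4 were lower and 0 higher in si-Med23 against si-Ctrl cells, where 19.5% of all genes were lower. SMAD4, the partner of the receptor-activated SMADs, read 10.27, 10.62 and 10.30 in si-Med23, 11.02, 10.97 and 10.68 in si-Elk1 and 11.15, 11.05 and 11.18 in si-Ctrl arrays (log2 fold change -0.73; limma adjusted p = 0.00628). The BMP-responsive SMAD1 (-0.77) and SMAD5 (-0.95) and the ubiquitin ligase TRIM33 (-1.46) also fell, and the list's median was -0.73. Of 11 genes of latency and activation, the integrin subunit ITGB5 (0.59) and the microfibril protein FBN1 (1.07) rose and ITGAV (-1.19), the alpha subunit of integrins that free latent TGF-beta, fell. Of 20 modulators 6 were higher and 3 lower; the ubiquitin ligase SMURF1 (0.50) and the repressor TGIF2 (0.74) rose, and WWP1 (-1.28) and UCHL5 (-0.85) fell. Between si-Med23 and si-Elk1 cells SMURF1 (0.69; adjusted p = 0.0118) and TGIF2 (1.00; adjusted p = 0.0202) were higher too.

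Genes known to respond to TGF-beta were tested in 23 cases. In si-Med23 against si-Ctrl cells 11 were higher and 1 was lower, with a median of 0.50, and in si-Elk1 against si-Ctrl cells 7 were higher and 1 lower, with a median of 0.62. Over all genes, 20.3% were higher and 19.5% lower in si-Med23 (median 0.09), and 3.07% higher and 1.19% lower in si-Elk1 cells (median 0.05). The single lower genes, named after their values were seen, were ZEB1 in si-Med23 (-1.73) and CCN2 in si-Elk1 cells (-0.67). MMP2, a gelatinase, read 8.56, 8.51 and 8.61 in si-Med23, 8.97, 9.27 and 9.38 in si-Elk1 and 7.10, 7.46 and 7.44 in si-Ctrl arrays, and it was lower in si-Med23 than si-Elk1 cells (-0.65; limma adjusted p = 0.0221). FN1, fibronectin, was higher in both knockdowns against si-Ctrl (1.21 in si-Med23, 1.28 in si-Elk1), with a si-Med23 to si-Elk1 difference of -0.07 that did not pass. The matrix genes COL1A1 (1.76 in si-Med23; 0.95 in si-Elk1, limma adjusted p = 0.0318) and SPARC (2.27 in si-Med23; 1.79 in si-Elk1, adjusted p = 0.00318) also rose in both against si-Ctrl. Between si-Med23 and si-Elk1 cells 7 of the 23 were higher and 5 were lower, against 9.54% and 12.2% of all genes. The fibroblast markers, summed, ranged from 6.84 to 7.58 in si-Med23, from 8.06 to 8.87 in si-Elk1 and from 7.82 to 8.26 in si-Ctrl arrays (log2). None had a mean over the 9 arrays above the filter level, although DCN averaged 3.51 in si-Med23, 7.37 in si-Elk1 and 5.99 in si-Ctrl arrays and COL1A2 3.42 in si-Med23, 6.06 in si-Elk1 and 5.15 in si-Ctrl arrays. Their part in the results was not tested.

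**Figure D4:**
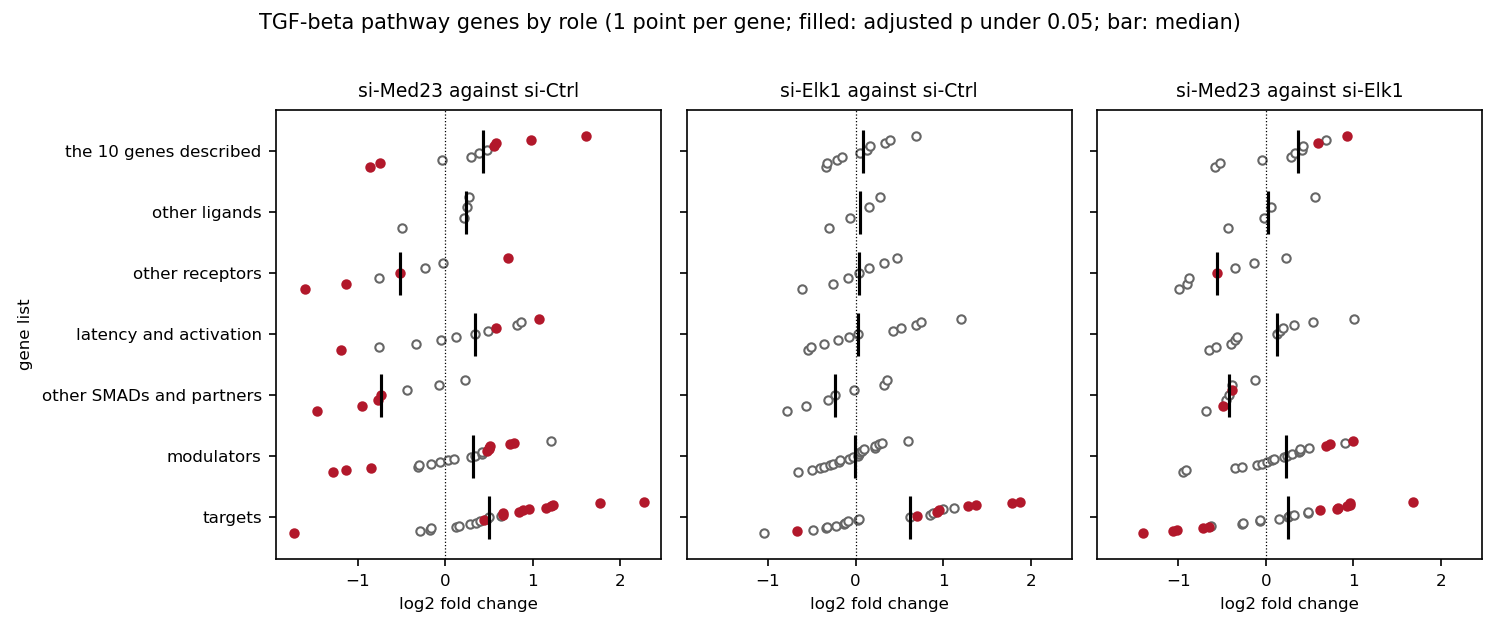
Log2 fold change of each gene tested, by list, in the 3 comparisons; filled points have an adjusted p under 0.05 and bars are list medians. In si-Med23 against si-Ctrl the other SMADs and partners have a median of -0.73 and the targets one of 0.50.

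The genes with the pattern most like each member over the 9 arrays were found by the root mean square difference of log2 values after centring each gene on its own mean. The closest to TGFB1 were MSRB1 (0.0601), NDUFV1 (0.0684) and COPE (0.0722), while the nearest member was TGFBI (0.183), with 344 genes closer. The closest to TGFB2 were MBTPS2 (0.0776), NCBP1 (0.0981) and PICALM (0.0984), and its nearest member was TGFBR1 (0.201), with 428 genes closer. For TGFBR1 they were CHD6 (0.102), CTTNBP2NL (0.106) and TRAF5 (0.111), with TGFB2 as the nearest member and 142 genes closer. The ligand TGFB2 and the receptor TGFBR1 were thus each other's nearest members, as were TGFB1 and TGFBI (1574 genes lay closer to TGFBI than TGFB1 did). For TGFBR2 they were SUDS3 (0.0430), SLC22A5 (0.0929) and IQGAP3 (0.0953). LTBP2 had no gene as close, with RNA45SN5 (0.174), SLC25A23 (0.191) and SYNPO (0.210). For TGFBI they were PFDN5 (0.0434), SNX17 (0.0466) and TM2D2 (0.0582). The others were ALDH1A1, MIGA2 and WWC3 for LTBP1, REPS2, GFOD2 and TMEM44 for LTBP3, DYNC1H1, ARID1A and TFDP1 for SMAD3, and DNASE1L1, PI4KA and KRT10 for SMAD7.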

How the data were processed

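Gene expression was measured on 9 Affymetrix arrays, 3 per group, grouped and numbered by the labels. The deposited values are probe set intensities on a linear scale. The authors' steps are known only in part: RMA and MAS5 are named, without roles or versions, per the submitters' processing notes, and on each array the 2% trimmed mean of the deposited intensities was about 500, as a common scaling leaves it. For the genome build, the sources used here give nothing. Total RNA was extracted with Trizol and labelled as biotin cRNA, per the labels.

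Intensities were taken as log2(value + 1), which slightly lowers the fold changes of dim probe sets. The platform annotation names 42898 probe sets, 41097 with 1 gene and 1801 with several. Each gene was represented by its probe set with the highest mean, and features with a mean under log2 6.05 (signal 65.4, the median over probe sets) were left out. Two-sided tests used lmFit and eBayes of limma 3.58.1 (R 4.3.3), with the 9 arrays in a common fit and no block. Benjamini-Hochberg adjustment ran over all genes (or probe sets) tested in a comparison, with a threshold of 0.05. The fit was tested on simulated data. The number of arrays limits the precision, and no duplicated array was found.

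The members, lists and tests were chosen with earlier results of these data known. Named were all 10 members with every probe set, up to 4 genes of each pathway list with the smallest p among those that passed, and the 3 genes closest to each member. Some listed genes and markers are not reported here. Of the 6 promoter motifs, the GC box, TATA box and cAMP response element were added after the windows were seen. Arrays were not treated as pairs by replicate number (correlations of deviations between same-numbered arrays from -0.18 to 0.05). Whether same-numbered arrays were prepared together was not tested. Alternatives were other filters, pseudocounts, scalings, probe set rules, fits, priors and thresholds, and leaving out each array.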

Additional observations from a re-analysis of the deposited data

How the results depend on the processing

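With poly-A spike scaling 9 members passed between si-Med23 and si-Ctrl cells and all 9 were lower, and the signs turned for TGFB1 (-0.63), LTBP1 (-1.32), LTBP3 (-1.14), TGFBR2 (-1.05), SMAD7 (-1.23) and TGFBI (-1.03). Nearly all genes moved with them: 94.3% of the 12616 passed in that comparison, 11880 of them lower. Between si-Med23 and si-Elk1 cells 6 members passed with the same scaling, all lower, among them SMAD3 (-0.69), SMAD7 (-0.64) and TGFBI (-0.56), whose signs turned. The share of all genes that passed there was 81.3%. The signs of TGFB1 (-0.38; limma adjusted p = 0.126) and LTBP2 (-0.046; adjusted p = 0.886) turned too, and these did not pass. So did the signs of LTBP3 (-0.28) and TGFBR2 (-0.55). Between si-Elk1 and si-Ctrl cells poly-A scaling gave 2 members, against 39.6% of all genes. Of the 22 member probe sets, it gave 20 for si-Med23 against si-Ctrl, 5 for si-Elk1 against si-Ctrl and 12 for si-Med23 against si-Elk1. The shares of all genes in these comparisons were 94.3%, 39.6% and 81.3%. The cause was not tested.

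Between si-Med23 and si-Elk1 cells, against 2 members and 4 probe sets, no filter gave 0 and 0, a stricter filter 4 and 7, median centring 7 and 11, only the 6 arrays compared 1 and 0, a trended and robust prior 4 and 7, and a threshold of 0.01 gave 0 and 0. The shares of all genes that passed were 4.95% with no filter, 32.4% with the stricter filter and 41.7% with median centring. They were 8.51% with only the 6 arrays, 28.1% with the trended and robust prior and 3.15% at 0.01. The mean of all probe sets gave 1 of the 10 members, where 1783 of 11059 genes passed. Leaving out _x_at and _s_at probe sets gave 1 of the 7 members still tested, where 1958 of 9781 genes passed. TGFB1, LTBP1 and LTBP3 had no other probe set above the filter level, so they were not tested in that setting. With the replicate block the counts were 0 and 1, where 10.5% of all genes passed. The block moved no other count by over 1.5 times, although TGFBR1 lost its call in si-Med23 against si-Ctrl (adjusted p = 0.0698). Leaving out 1 array gave 0 to 6 members and 0 to 9 probe sets, against 6.10% to 35.6% of all genes.

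Between si-Med23 and si-Ctrl cells a threshold of 0.01 gave 2 members and 3 probe sets, and no filter gave 4 members and 3 probe sets, against 6 and 7. The shares of all genes that passed fell as well, to 18.3% at 0.01 and 18.4% with no filter, against 39.8% in the main setting. Leaving out 1 array gave 4 to 6 members and 3 to 8 probe sets, against 25.2% to 46.6% of all genes. Between si-Elk1 and si-Ctrl cells a stricter filter gave 1 probe set, and leaving out 1 array gave 0 members and 0 probe sets each time. The shares of all genes were 10.2% with the stricter filter and 0.864% to 3.95% with an array left out. Over single members, 576 values kept their direction and side of the threshold, and 41 lost and 25 gained a call with the same direction. A further 28 turned sign without passing in the main or the alternative setting. Another 11 turned sign and passed in the main setting, the alternative or both. In si-Med23 against si-Ctrl, LTBP2 passed in 22 of 23 alternatives, all but poly-A scaling, and TGFB1 in 21 of 22, lower in poly-A scaling.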
